A study of Mus musculus with 48 samples.

Results

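The chemokine ligands of mouse skin were followed as a family of 38 genes among the 46983 listed in each expression table. Members were taken by name: every gene called Ccl or Cxcl with a number and at most 1 further letter, 23 and 13 of them, together with Cx3cl1 and Xcl1. The study had profiled whole skin of C57BL/6 mice from the chin, ventral and dorsal domains at 6 stages of the hair cycle: competent (first) telogen, early, mid- and late anagen, catagen and refractory (early second) telogen. Each of these 18 groups held 2 or 3 libraries, 43 in all. A further table of 7 libraries held the ear: 3 of the cartilage/muscle complex and 2 of telogen ear skin, beside 2 of dorsal competent telogen skin whose values were the same as in the skin table, so that 48 libraries were distinct. The sample descriptions name no treatment, transgene or age, and all groups share the strain. They do not say whether replicates came from separate mice, so p-values measure the spread between these libraries, which may in part be technical.

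Chemokines are small secreted proteins that bind heparan sulfate on cells and matrix and guide leukocytes through G protein-coupled receptors. CC ligands such as Ccl2, Ccl7 and Ccl8 draw monocytes, and Ccl11 and Ccl24 draw eosinophils through Ccr3. CXC ligands with a Glu-Leu-Arg motif, such as Cxcl1 and Cxcl2, draw neutrophils through Cxcr2, while Cxcl9 and Cxcl10 are induced by interferon and draw activated T cells through Cxcr3. In skin, keratinocytes make Ccl27, which binds Ccr10 on skin-homing T cells, and Cxcl14. Lymphatic vessels make Ccl21, which guides dendritic cells through Ccr7, and stromal cells make Cxcl12, the ligand of Cxcr4. Cxcl16 and Cx3cl1 are made as membrane-anchored proteins and shed. Decoy receptors such as Ackr3 and Ackr4 bind ligands without signalling through G proteins and clear them.

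Values are FPKM, fragments scaled to transcript length and library size, so that levels of different genes can be set side by side. Depth as estimated from the smallest steps of the values ran from 6723523 to 28893374 fragments per library, with a median of 12748881. For a transcript of 1 kb, 1 fragment was then worth 0.149 FPKM at the lowest depth and 0.0346 FPKM at the highest, and values near these steps carry the counting error of a few fragments. Differences are given on the log2(FPKM + 1) scale with their standard error (SE), which understates the change of low genes, and adjusted p-values come from limma with Benjamini-Hochberg adjustment over all 21257 genes of the skin table or 19299 genes of the ear table that passed a minimum of 0.5 FPKM in 2 libraries.

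Several libraries stood apart from their labels or from their replicates. Dorsal competent telogen lay as close to chin late anagen (median root mean square distance 0.432 on the log2 scale, 4 pairs) as replicates of a group lay to each other (median 0.488, 32 pairs), and all other pairs of groups ranged from 0.489 to 1.11. Proliferation markers averaged 5.0 to 5.3 on the log2 scale in the chin and ventral competent telogen libraries and 4.1 in the dorsal ones, against 2.5 to 2.9 in refractory telogen. They averaged 2.1 to 2.5 in ventral early anagen, a stage of follicle growth. In chin refractory telogen, replicate 2 differed from the other 2 libraries for several chemokines, and the 2 ventral refractory telogen libraries differed from each other. The description of 1 ventral catagen library (replicate 1) gives an ear location although its title and source say ventral. The counts of anagen against telogen and of domain means are therefore also given without the competent telogen libraries. Ventral early anagen stays among the anagen groups in those counts. These tissues are bulk samples, so that fewer cells of a type and less RNA per cell cannot be told apart.

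Skin chemokine transcripts came mostly from a handful of genes. Ccl27a, the keratinocyte ligand of Ccr10, averaged 1388 FPKM over the 43 skin libraries and made up 68.4% of the summed FPKM of the family. With Ccl8 (mean 181 FPKM), Cxcl14 (137 FPKM) and Ccl21a (114 FPKM) the share was 89.7%. Cxcl12 followed at 48.2 FPKM (mean), Ccl6 at 37.2, Ccl27b at 18.9 and Cxcl16 at 14.6. In all, 11 members averaged over 10 FPKM and 13 averaged under 1 FPKM. Above 0 in every skin library were 21 members, and Ccl26, an eosinophil ligand in humans, was listed at 0 in every library of both tables. The minimum for testing was met by 33 members in skin, and not by Cxcl3, Cxcl5, Cxcl11, Ccl26 and Ccl28. It was met by 32 members among the ear libraries and not by 6.

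**Figure D1:**
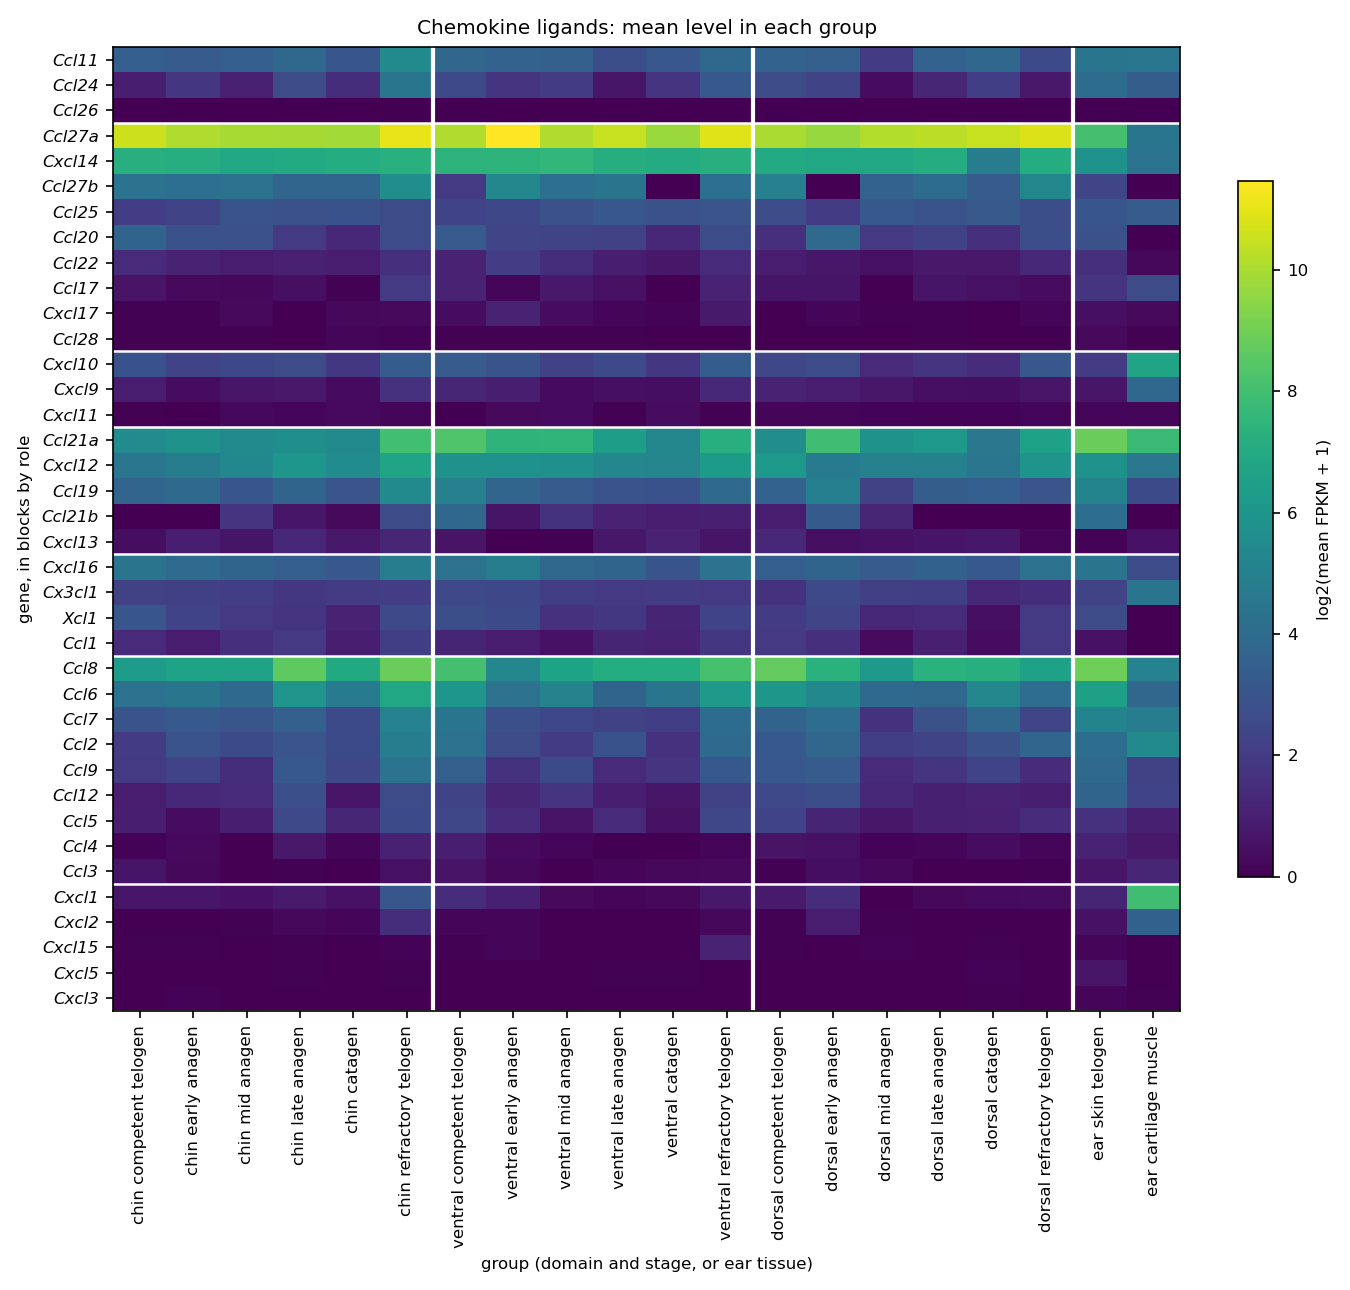
Mean level of each chemokine ligand in the 18 domain and stage groups and in ear skin and ear cartilage and muscle, as log2(mean FPKM + 1) on the colour scale, with genes in blocks by role (rows) and groups in columns separated by white lines between domains. The chin refractory telogen column is the brightest of the skin columns in 18 of the 33 rows tested, and Cxcl1 (245 FPKM, mean) and Cxcl10 (104 FPKM) stand out in ear cartilage and muscle.

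More members peaked in refractory telogen of the chin than in any other group. Among the 18 groups, 18 of the 33 members tested had their highest mean there, among them Ccl2, Ccl6, Ccl7, Ccl8, Ccl9, Ccl11, Ccl24, Cxcl1, Cxcl12 and Ccl19, compared with 12.6% of all genes tested. Within the chin, 26 of the 33 members peaked at refractory telogen, against 29.9% of all genes. In ventral skin, 13 members peaked at competent telogen and 12 at refractory telogen, where 37.8% and 10.2% of all genes peaked. Dorsal skin ran differently, with 14 members at their highest in early anagen (41.2% of all genes), 10 in competent telogen (9.4%) and 6 in refractory telogen (13.2%). The 4 members with their highest group mean in ventral early anagen were Ccl27a, Cxcl16, Ccl22 and Cxcl17, where 8.6% of all genes had theirs. Dorsal early anagen was the highest group for Ccl20 and Cx3cl1.

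Most members changed over the 6 stages in each domain. In an F-test over the stages, 27 of 33 members passed in chin skin (66.2% of all genes did), 30 in ventral (70.2%) and 27 in dorsal skin (68.5%). The course over the stages differed among the domains for 29 of 33 members (interaction F-test with 10 degrees of freedom, 73.3% of all genes). The 4 others were Ccl1, Ccl21b, Ccl27b and Xcl1. Domains differed for 23 members in each of competent telogen (54.0% of all genes), early anagen (51.6%) and refractory telogen (42.2%). The count was 14 in mid-anagen (38.1%), 13 in late anagen (20.8%) and 10 in catagen (42.9%). The share of members was above that of all genes at every stage but catagen, where it was below, and at mid-anagen it was close (42.4% against 38.1%).

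More members were called lower than higher in anagen against telogen in each domain, with and without competent telogen. With the mean of the 3 anagen groups set against the mean of the 2 telogen groups, 21 of 33 members were lower and 1 was higher in the chin (36.5% of all genes called, 27.5% lower and 8.99% higher), with a median difference over the members of -0.62 against -0.10 over all genes. In ventral skin 22 were lower and 0 higher (21.2% of all genes called, 16.1% lower and 5.08% higher), with medians of -0.57 and -0.05, and at an unadjusted p under 0.05 in limma 24 were lower and 1 higher. In dorsal skin 12 were lower and 3 higher (39.0% of all genes called, 9.44% lower and 29.6% higher), with medians of -0.13 and 0.10. Without the competent telogen libraries, 32 members were tested. In the chin 23 differed, all lower (44.6% of all genes called, 15.3% higher and 29.3% lower), and in ventral skin 13, all lower (26.3% called, 16.1% higher and 10.2% lower). In dorsal skin 7 were then lower and 3 higher (38.0% called, 26.2% higher and 11.8% lower). With libraries scaled by the median of ratios instead, 19 were lower and 3 higher in ventral skin, and 14 and 1 in dorsal skin, where rescaling each library to a fixed sum gave 9 and 4. Scaling by the median of ratios moved the median of all genes by 0.10 in the chin and by -0.11 in dorsal skin. The anagen minus telogen difference itself differed between chin and ventral skin for 10 members, 6 with the lower value in ventral skin and 4 in the chin (18.7% of all genes called, 7.39% and 11.3%). Between chin and dorsal skin it differed for 15, 2 with the lower value in dorsal skin and 13 in the chin (46.1% called, 8.44% and 37.7%), and between ventral and dorsal skin for 18, 4 and 14 in the same sense (39.4% called, 7.45% and 31.9%). Without competent telogen, 14 differed between chin and ventral skin, 13 of them with the lower value in the chin (32.8% called, 24.3% so), 18 between chin and dorsal skin, all lower in the chin (42.6% called, 33.4% so), and 13 between ventral and dorsal skin, 10 of them lower in ventral skin (18.4% called, 12.5% so). These comparisons share the libraries of each domain.

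**Figure D2:**
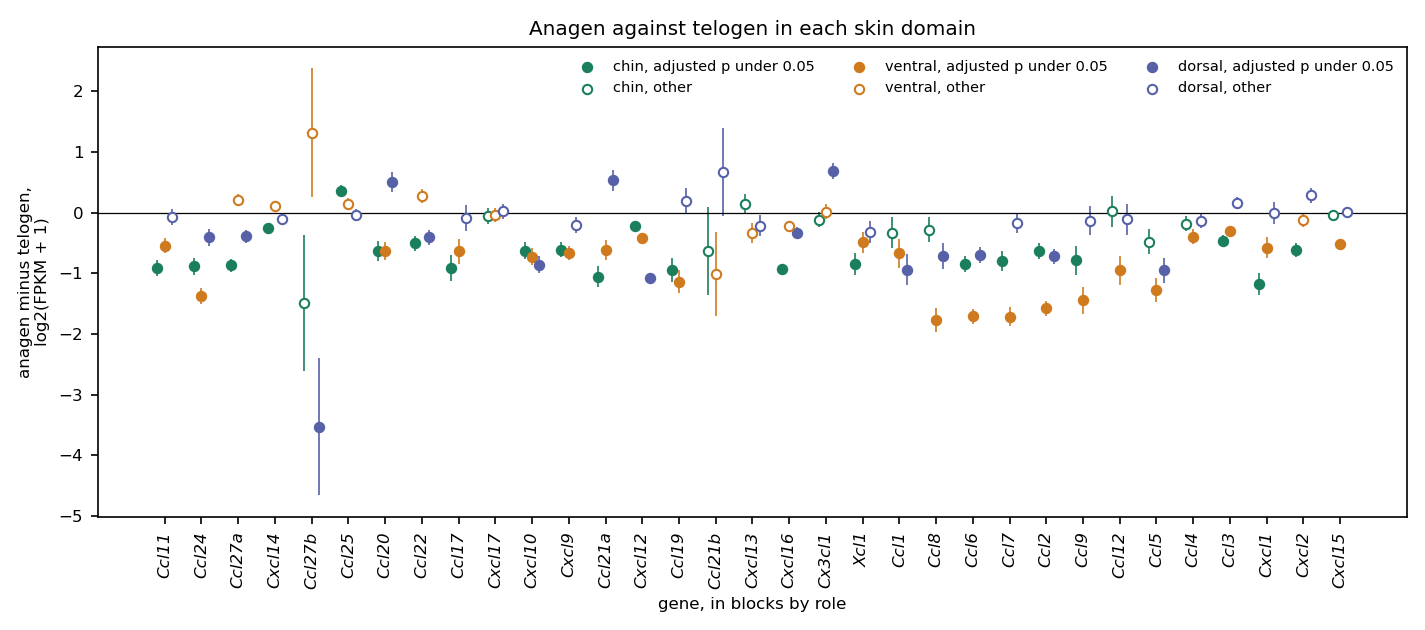
Difference of anagen minus telogen on the log2(FPKM + 1) scale (vertical axis) for each chemokine ligand tested (horizontal axis, in blocks by role) in chin, ventral and dorsal skin. Points are estimates, bars are the SE, and filled points have an adjusted p under 0.05 from limma. Nearly all filled points of chin and ventral skin lie below 0, with the monocyte ligands Ccl8, Ccl7 and Ccl6 lowest in ventral skin at -1.77 to -1.71.

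Ccl27a, on chromosome 4 from 41769467 to 41774247 (GRCm38), had 2 high points in the cycle, ventral early anagen and refractory telogen of every domain. In chin skin Ccl27a was at 1565 and 1534 FPKM in competent telogen, 1188 and 985 in early anagen, 713 and 1297 in mid-anagen, 925 and 1002 in late anagen, 1000.0, 843 and 929 in catagen, and 2412, 1911 and 2178 in refractory telogen. Ventral skin had Ccl27a at 1299.7, 998 and 945 FPKM in competent telogen, 2766, 2786 and 2922 in early anagen, 1229.6 and 965 in mid-anagen, 1460.4, 1397 and 1453 in late anagen, 768 and 916 in catagen, and 1912 and 1883 in refractory telogen. Dorsal skin had Ccl27a at 1029 and 1015 FPKM in competent telogen, 836 and 812 in early anagen, 1118, 1056 and 1242 in mid-anagen, 1215, 1243 and 1306 in late anagen, 1378 and 1504 in catagen, and 1876 and 1849 in refractory telogen. The ventral early anagen libraries, at 2766 to 2922 FPKM, lay above every other skin library. Refractory telogen was at 1849 FPKM or more in all 7 libraries, and all libraries of other groups apart from ventral early anagen were below that. Dorsal early anagen, at 812 and 836 FPKM, was the lowest group by its mean. Ccl27a differed among domains most clearly at early anagen (F-test, adjusted p = 2.19e-10), while at refractory telogen no difference passed the threshold (adjusted p = 0.454). The anagen minus telogen difference was -0.87 in the chin (SE 0.10, adjusted p = 1.46e-07) and -0.39 in dorsal skin (SE 0.11, adjusted p = 0.00403), where it was -0.82 without competent telogen. Ventral skin went the other way, with means of 1786 FPKM in anagen and 1489 FPKM in telogen, but no member was called higher there. That anagen mean took in ventral early anagen, whose proliferation markers were low. Ventral mid- and late anagen were at 965 to 1460.4 FPKM. Keratinocyte markers, 6 of 6 detected, summed to 10266 to 10740 FPKM in ventral early anagen and to 2239 to 7645 FPKM in the other skin groups, and their part in the level of Ccl27a was not tested. Reads of Ccl27a and its copies cannot be fully separated: 22.0% of its 50-base stretches are shared with Gm13306, listed at a mean of 817 FPKM. Summed with its copies, it was at 4602 to 4891 FPKM in ventral early anagen and 3533 to 4702 FPKM in chin refractory telogen, so that these ranges overlapped. The sums in refractory telogen were 2840 to 2945 FPKM in ventral and 2795 to 2811 FPKM in dorsal skin, below those of the chin.

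Cxcl14, a keratinocyte chemokine with no agreed receptor, was lowest in dorsal catagen. It lies on chromosome 13 from 56288643 to 56296551. In chin skin Cxcl14 was at 146 and 151 FPKM in competent telogen, 132 and 145 in early anagen, 124 and 107 in mid-anagen, 120.2 and 133 in late anagen, 143, 130.0 and 134 in catagen, and 155, 154 and 154 in refractory telogen. Ventral skin had Cxcl14 at 179.6, 175 and 156 FPKM in competent telogen, 179, 162 and 165 in early anagen, 189.6 and 197 in mid-anagen, 139.7, 138 and 140.4 in late anagen, 124 and 138 in catagen, and 95.8 and 201 in refractory telogen. Dorsal skin had Cxcl14 at 128 and 125 FPKM in competent telogen, 119 and 112 in early anagen, 115, 120.0 and 118 in mid-anagen, 132, 133 and 137 in late anagen, 28.4 and 27.3 in catagen, and 138 and 133 in refractory telogen. All libraries apart from dorsal catagen lay between 95.8 and 201 FPKM, and both dorsal catagen libraries were under 30 FPKM. The ventral refractory telogen libraries, at 95.8 and 201 FPKM, spanned this whole range within 1 group. Domains differed at catagen (F-test, adjusted p = 6.4e-13), stages differed in dorsal (adjusted p = 1.47e-12) and ventral skin (adjusted p = 0.00991), and no change over the stages passed in the chin (adjusted p = 0.141). Averaged over the stages, Cxcl14 was 0.66 higher in ventral than in dorsal skin (SE 0.06, adjusted p = 1.26e-09) and 0.47 higher in chin than in dorsal skin (SE 0.06, adjusted p = 2.09e-06). Both values took in dorsal catagen. Without the catagen libraries they were 0.35 (SE 0.07, adjusted p = 0.000341) and 0.11 (SE 0.07, adjusted p = 0.286), and the chin was then not called.

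Ccl20, the ligand of Ccr6 on Langerhans cells and some T cells, was highest at early anagen in dorsal skin and at competent telogen in the other domains. In chin skin Ccl20 was at 13.5 and 10.1 FPKM in competent telogen, 6.4 and 5.79 in early anagen, 4.26 and 8.17 in mid-anagen, 3.44 and 2.2 in late anagen, 1.08, 1.81 and 1.57 in catagen, and 4.31, 6.74 and 4.67 in refractory telogen. Ventral skin had Ccl20 at 8.76, 11.1 and 6.73 FPKM in competent telogen, 5.31, 2.75 and 4.68 in early anagen, 5.06 and 3.2 in mid-anagen, 3.71, 3.93 and 3.94 in late anagen, 1.68 and 1.3 in catagen, and 5.35 and 5.05 in refractory telogen. Dorsal skin had Ccl20 at 2.16 and 1.87 FPKM in competent telogen, 14.2 and 14.1 in early anagen, 2.99, 2.92 and 2.3 in mid-anagen, 4.02, 3.13 and 3.86 in late anagen, 1.4 and 2.55 in catagen, and 4.99 and 6.51 in refractory telogen. Dorsal early anagen held the highest mean, 14.1 FPKM, and both of its libraries lay above all others in the series. In chin and ventral skin competent telogen was at 6.73 to 13.5 FPKM. Anagen minus telogen was -0.63 in the chin (SE 0.16, adjusted p = 0.00227), -0.63 in ventral skin (SE 0.15, adjusted p = 0.00254) and 0.51 in dorsal skin (SE 0.16, adjusted p = 0.0114). All 3 calls rested on competent telogen, at 1.87 and 2.16 FPKM in dorsal skin. Without it the values were -0.11 in the chin (adjusted p = 0.672), -0.31 in ventral skin (adjusted p = 0.304) and -0.07 in dorsal skin (adjusted p = 0.84).

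Ccl25, a ligand of Ccr9 known from thymus and gut, stayed between 2.63 and 9.76 FPKM. In chin skin Ccl25 was at 3.9 and 2.63 FPKM in competent telogen, 4.12 and 3.93 in early anagen, 6.68 and 7.02 in mid-anagen, 6.62 and 5.9 in late anagen, 5.28, 6.91 and 6.81 in catagen, and 5.23, 4.98 and 5.72 in refractory telogen. Ventral skin had Ccl25 at 4.56, 3.23 and 4.15 FPKM in competent telogen, 3.62, 5.61 and 4.6 in early anagen, 6.39 and 5.81 in mid-anagen, 7.17, 7.32 and 8.4 in late anagen, 6.14 and 6.08 in catagen, and 6.76 and 7.33 in refractory telogen. Dorsal skin had Ccl25 at 5.21 and 5.69 FPKM in competent telogen, 2.7 and 3.15 in early anagen, 7.26, 6.94 and 9.76 in mid-anagen, 7.07, 6.97 and 5.91 in late anagen, 9.12 and 7.14 in catagen, and 5.68 and 5.77 in refractory telogen. It was the only member called higher in anagen than in telogen in the chin (0.35, SE 0.10, adjusted p = 0.00559), a call that was lost without the competent telogen libraries (0.06, adjusted p = 0.675) and without chin competent telogen replicate 2. Ccl22 and Ccl17, both ligands of Ccr4 made by dendritic cells, peaked in different groups. Ccl22 was highest in ventral early anagen (mean 3.29 FPKM) and Ccl17 in chin refractory telogen (2.89 FPKM). Cxcl17, a mucosal chemokine, reached 1.24 FPKM (mean) in ventral early anagen and was at 0 in 19 libraries. Ccl28, a mucosal epithelial ligand, did not exceed 0.16 FPKM in any skin library.

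Ccl27b is a near copy of Ccl27a on chromosome 4 from 42655251 to 42656005, and its values jumped to 0 within groups. In chin skin Ccl27b was at 16.9 and 21.9 FPKM in competent telogen, 13.2 and 21.3 in early anagen, 0 and 38 in mid-anagen, 14.9 and 9.75 in late anagen, 0, 26.4 and 11.1 in catagen, and 71.8, 41 and 38.2 in refractory telogen. Ventral skin had Ccl27b at 0, 0 and 8.51 FPKM in competent telogen, 68.1, 16.7 and 31.7 in early anagen, 34.5 and 0 in mid-anagen, 38.8, 9.01 and 12.3 in late anagen, 0 in both catagen libraries, and 13.3 and 20.9 in refractory telogen. Dorsal skin had Ccl27b at 26.7 and 34.6 FPKM in competent telogen, 0 in both early anagen libraries, 0, 0 and 33.5 in mid-anagen, 25, 22 and 0 in late anagen, 18 and 0 in catagen, and 34.2 and 41.4 in refractory telogen. Of the 43 skin libraries 13 were listed at 0, and in 7 groups a library at 0 stood beside one well above it. Of its 50-base stretches, 98.1% are shared with Gm13306 and 61.4% with Ccl27a, so that its level depends on how reads were divided. In dorsal skin the anagen minus telogen difference was -3.53 (SE 1.13, adjusted p = 0.013). Without competent telogen it was -3.68 and not past the threshold (adjusted p = 0.0578).

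**Figure D3:**
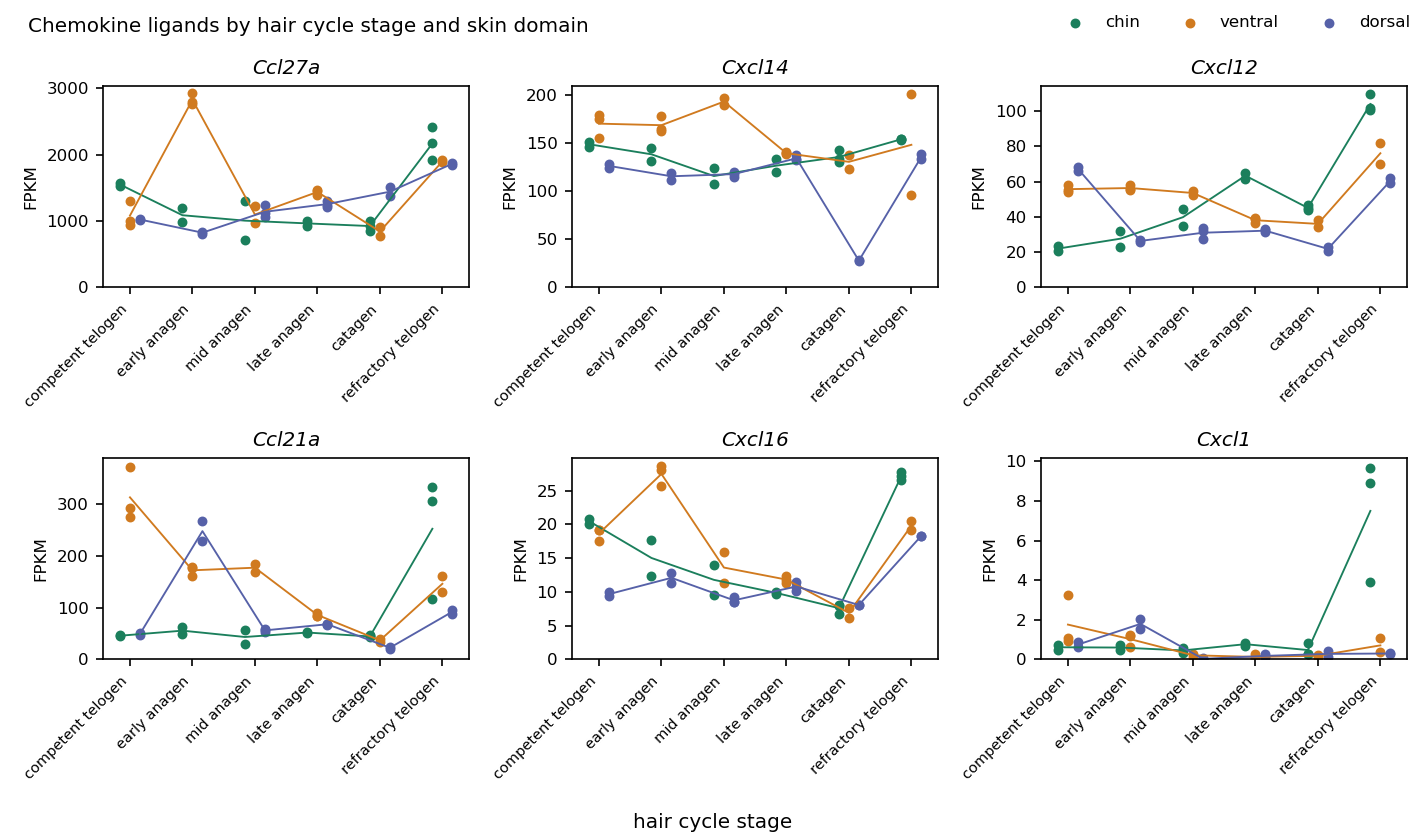
FPKM (vertical axes, from 0) of Ccl27a, Cxcl14, Cxcl12, Ccl21a, Cxcl16 and Cxcl1 at 6 hair cycle stages (horizontal axes) in chin, ventral and dorsal skin. Points are libraries and lines join group means. Ccl27a peaks in ventral early anagen at 2766 to 2922 FPKM, Cxcl14 drops to 27.3 and 28.4 FPKM in dorsal catagen, and Cxcl1 reaches 3.92 to 9.69 FPKM in chin refractory telogen.

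Among the homing ligands, Ccl21a, the lymphatic ligand of Ccr7, had a peak of its own in each domain. It lies on chromosome 4 from 42772860 to 42773993. In chin skin Ccl21a was at 45.1 and 46.6 FPKM in competent telogen, 62.6 and 48.7 in early anagen, 57 and 29.8 in mid-anagen, 51.3 and 52.7 in late anagen, 46.3, 42.6 and 44.4 in catagen, and 333, 118 and 307 in refractory telogen. Ventral skin had Ccl21a at 372, 293 and 275 FPKM in competent telogen, 176, 161 and 179.6 in early anagen, 185 and 169.6 in mid-anagen, 84.4, 84 and 89.8 in late anagen, 33.8 and 40.0 in catagen, and 162 and 131 in refractory telogen. Dorsal skin had Ccl21a at 51.1 and 47.6 FPKM in competent telogen, 267 and 229 in early anagen, 52.7, 56.1 and 59.8 in mid-anagen, 67.4, 68.7 and 68.1 in late anagen, 20.6 and 24.5 in catagen, and 96.3 and 88.2 in refractory telogen. The high groups were refractory telogen in the chin, competent telogen in ventral skin and early anagen in dorsal skin, and in each of these domains all libraries of the high group lay above all libraries of the other stages. Within chin refractory telogen, replicate 2 was at 118 FPKM and the other libraries at 307 and 333 FPKM. Anagen was lower than telogen in the chin (-1.05, SE 0.17, adjusted p = 1.67e-05) and in ventral skin (-0.62, SE 0.16, adjusted p = 0.00597) and higher in dorsal skin (0.54, SE 0.17, adjusted p = 0.0141). Without competent telogen the chin difference was -2.20, and neither the ventral one, -0.08 (adjusted p = 0.869), nor the dorsal one, 0.09 (adjusted p = 0.807), passed. Averaged over the stages, ventral skin exceeded dorsal skin by 0.90 (SE 0.11, adjusted p = 1.02e-07), and the chin was lower than ventral skin by 1.04 on the log2 scale (difference -1.04, SE 0.11, adjusted p = 2e-08). Lymphatic endothelium markers were summed over 4 genes, because Ccl21a, also in the list of 5, was left out. They summed to 65.6 to 77.1 FPKM in ventral competent telogen, 44 to 54.9 FPKM in chin refractory telogen and 46.9 to 51.5 FPKM in dorsal early anagen, with 18.8 to 79 FPKM over all skin groups. Their part in the level of Ccl21a was not tested, and 71.6% of its 50-base stretches are shared with Gm21541.

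Ccl19, the other ligand of Ccr7, made by stromal cells and dendritic cells, had its high groups in the same places. In chin skin Ccl19 was at 11.2 and 13.2 FPKM in competent telogen, 12.2 and 16.9 in early anagen, 9.03 and 5.83 in mid-anagen, 13.1 and 11 in late anagen, 6.14, 5.41 and 9.87 in catagen, and 59.4, 20.5 and 45.9 in refractory telogen. Ventral skin had Ccl19 at 37.4, 28.7 and 25.7 FPKM in competent telogen, 12.7, 13.7 and 10.4 in early anagen, 10.6 and 7.55 in mid-anagen, 7.29, 6.06 and 6.5 in late anagen, 5.66 and 6.98 in catagen, and 17.6 and 11.8 in refractory telogen. Dorsal skin had Ccl19 at 11.6 and 10.7 FPKM in competent telogen, 31.7 and 27.4 in early anagen, 2.85, 4.84 and 3.34 in mid-anagen, 7.8, 11.8 and 9.08 in late anagen, 10.2 and 9.33 in catagen, and 5.64 and 8.78 in refractory telogen. Dorsal early anagen (27.4 and 31.7 FPKM) lay above the other dorsal stages, and dorsal mid-anagen was the lowest group with a mean of 3.68 FPKM. Anagen minus telogen was -0.94 in the chin (SE 0.20, adjusted p = 0.000402) and -1.14 in ventral skin (SE 0.19, adjusted p = 4.27e-05). Without competent telogen the chin difference was -1.74 (adjusted p = 1.91e-06), and the ventral call was lost (-0.63, adjusted p = 0.0939). Of its 50-base stretches 52.0% are shared with Gm2564, listed at a mean of 30.9 FPKM, about which the same holds as for the copies of Ccl27a.

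Cxcl12, the stromal ligand of Cxcr4 and Ackr3, was lower in anagen than in telogen in all domains, by amounts that depended on competent telogen. It lies on chromosome 6 from 117168535 to 117181367. In chin skin Cxcl12 was at 23.6 and 20.4 FPKM in competent telogen, 23.1 and 32.2 in early anagen, 44.5 and 35 in mid-anagen, 65 and 61.7 in late anagen, 43.9, 46.5 and 44.8 in catagen, and 102, 100.5 and 109.7 in refractory telogen. Ventral skin had Cxcl12 at 58.1, 53.9 and 55 FPKM in competent telogen, 58.1, 55.6 and 55.3 in early anagen, 52.6 and 54.5 in mid-anagen, 39.2, 36.4 and 38.6 in late anagen, 38 and 34 in catagen, and 70.1 and 82 in refractory telogen. Dorsal skin had Cxcl12 at 66.2 and 68.2 FPKM in competent telogen, 25.9 and 26.8 in early anagen, 33.8, 31.9 and 27.3 in mid-anagen, 33.1, 31.1 and 32.3 in late anagen, 22.8 and 20.9 in catagen, and 58.9 and 61.8 in refractory telogen. In dorsal skin both telogen groups were at 58.9 to 68.2 FPKM and the other stages at 20.9 to 33.8 FPKM. In the chin the competent telogen libraries were instead the lowest by their mean, late anagen was at 61.7 and 65 FPKM, and refractory telogen was at 100.5 to 109.7 FPKM, above every other library of the series. The anagen minus telogen difference was -1.08 in dorsal skin (SE 0.07, adjusted p = 6.95e-13), -0.41 in ventral skin (SE 0.07, adjusted p = 2.5e-05) and -0.23 in the chin (SE 0.07, adjusted p = 0.0111). Without competent telogen these values were -1.0, -0.63 and -1.32 in the same order, so that the chin value, the smallest of the 3 with it, was the largest in size without it. The difference between chin and dorsal skin changed sign with it, from 0.85 (adjusted p = 6.49e-08) to -0.32 (adjusted p = 0.0412). Cxcl13, the B cell follicle ligand, did not exceed 1.89 FPKM, and Ccl21b, wholly contained in the sequence of Gm10591, Gm13304 and Gm21541, was listed at 0 in 23 skin libraries.

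The membrane-anchored ligand Cxcl16, which binds Cxcr6 on T cells, had its highest means in ventral early anagen (27.5 FPKM) and chin refractory telogen (27.2 FPKM), followed by chin competent telogen (20.5 FPKM). In chin skin Cxcl16 was at 20.1 and 20.8 FPKM in competent telogen, 17.7 and 12.3 in early anagen, 9.54 and 14 in mid-anagen, 9.96 and 9.72 in late anagen, 6.69, 8.1 and 7.98 in catagen, and 26.5, 27.2 and 27.8 in refractory telogen. Ventral skin had Cxcl16 at 19.1, 19.2 and 17.6 FPKM in competent telogen, 28.7, 25.7 and 28 in early anagen, 15.9 and 11.3 in mid-anagen, 11.7, 11.4 and 12.3 in late anagen, 6.17 and 7.62 in catagen, and 19.2 and 20.4 in refractory telogen. Dorsal skin had Cxcl16 at 9.34 and 9.99 FPKM in competent telogen, 12.8 and 11.4 in early anagen, 8.56, 8.52 and 9.17 in mid-anagen, 10.2, 11.5 and 10.8 in late anagen, 8 and 8.12 in catagen, and 18.3 in both refractory telogen libraries. Refractory telogen stood above catagen in every domain with no overlap, and the lowest mean was in ventral catagen, 6.89 FPKM. Anagen was lower than telogen by 0.93 in the chin on the log2 scale (difference -0.93, SE 0.09, adjusted p = 1.36e-09) and by 0.33 in dorsal skin (difference -0.33, SE 0.09, adjusted p = 0.00331), where the difference was -0.75 without competent telogen. The ventral difference, -0.22, did not pass. Over the 18 group means the level of Cxcl16 had a Pearson correlation of 0.911 with the keratinocyte marker list and of 0.896 with the T cell marker list, as a description of groups that share the same libraries for both measures. The gene overlaps Zmynd15, which shares 16.9% of its 50-base stretches and averaged 0.401 FPKM.

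Cx3cl1, the membrane-anchored ligand of Cx3cr1 on monocytes and resident macrophages, stayed between 1.31 and 5.62 FPKM. In chin skin Cx3cl1 was at 4.16 and 3.28 FPKM in competent telogen, 3.47 and 3.52 in early anagen, 3.47 and 3.25 in mid-anagen, 2.56 and 2.59 in late anagen, 3.79, 2.66 and 2.71 in catagen, and 3.6, 2.63 and 3.51 in refractory telogen. Ventral skin had Cx3cl1 at 5.04, 5.04 and 4.3 FPKM in competent telogen, 4.26, 4.31 and 5.43 in early anagen, 3.6 and 3.17 in mid-anagen, 2.45, 2.89 and 2.93 in late anagen, 3.53 and 2.78 in catagen, and 1.31 and 4.19 in refractory telogen. Dorsal skin had Cx3cl1 at 2.32 and 2.05 FPKM in competent telogen, 5.62 and 4.11 in early anagen, 3.6, 3.72 and 3.03 in mid-anagen, 3.41, 3.42 and 3.47 in late anagen, 1.47 and 1.38 in catagen, and 1.74 and 1.95 in refractory telogen. In dorsal skin every anagen library was above every telogen library, a difference of 0.69 (SE 0.13, adjusted p = 8.36e-05) that was 0.77 without competent telogen. The differences in chin (-0.11) and ventral skin (0.02) did not pass. Xcl1, the lymphotactin of T and NK cells, was highest in chin competent telogen (mean 7.39 FPKM), and Ccl1, a ligand of Ccr8, in chin refractory telogen (3.31 FPKM).

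The monocyte ligands were lower in anagen in ventral skin in 9 of 9 cases tested, with a median difference of -1.44. In the chin 5 of 9 were lower and in dorsal skin 4 of 9, and 0 of the 9 were higher in any domain, also at an unadjusted p under 0.05 in limma. Without competent telogen, 8 of them were tested, and 6 were lower in ventral skin, 8 in the chin and 1 in dorsal skin. Of all genes, 16.1% were lower in ventral skin, 27.5% in the chin and 9.44% in dorsal skin. Without competent telogen these shares were 10.2%, 29.3% and 11.8%. Ccl8, which draws monocytes and T cells and is made by skin macrophages, lies on chromosome 11 from 82115185 to 82116799. In chin skin Ccl8 was at 76.5 and 78.9 FPKM in competent telogen, 79.2 and 115 in early anagen, 138 and 54.3 in mid-anagen, 379.9 and 414 in late anagen, 131, 128 and 117 in catagen, and 616, 212 and 564 in refractory telogen. Ventral skin had Ccl8 at 326, 238 and 254 FPKM in competent telogen, 36.3, 45.8 and 34.7 in early anagen, 128 and 71.2 in mid-anagen, 137, 131 and 134 in late anagen, 119 and 157 in catagen, and 302 and 250.4 in refractory telogen. Dorsal skin had Ccl8 at 420.4 and 419 FPKM in competent telogen, 160.4 and 157 in early anagen, 71.1, 73.1 and 71.3 in mid-anagen, 154, 159 and 157 in late anagen, 140.3 and 148 in catagen, and 92.8 and 95.8 in refractory telogen. Ventral early anagen, at 34.7 to 45.8 FPKM, was below every other skin library, and chin refractory telogen held both the highest values (564 and 616 FPKM) and, in replicate 2, a value of 212 FPKM. Ventral mid- and late anagen, at 71.2 to 137 FPKM, were also below ventral telogen, at 238 to 326 FPKM. Chin late anagen and dorsal competent telogen, the groups that lay as close as replicates over all genes, were at 379.9 to 420.4 FPKM. Anagen minus telogen was -1.77 in ventral skin (SE 0.20, adjusted p = 7.32e-08) and -1.78 without competent telogen, and it was -0.71 in dorsal skin (SE 0.21, adjusted p = 0.00749), a call that was lost, with a value of 0.36, without competent telogen (adjusted p = 0.358). In the chin, -0.28, it did not pass, but it was -1.49 and past the threshold without competent telogen (adjusted p = 3.28e-05).

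Ccl6, a mouse CC ligand of Ccr1 made by myeloid cells, was lower in anagen in chin and ventral skin, with and without competent telogen. In chin skin Ccl6 was at 20.7 and 16.3 FPKM in competent telogen, 19.3 and 22.4 in early anagen, 19.5 and 8.39 in mid-anagen, 60.2 and 62.4 in late anagen, 22.4, 28.4 and 26.4 in catagen, and 124, 95.5 and 132 in refractory telogen. Ventral skin had Ccl6 at 67.5, 67.3 and 56.2 FPKM in competent telogen, 18.3, 19.4 and 19.2 in early anagen, 36.9 and 31.7 in mid-anagen, 12.1, 12.9 and 10.7 in late anagen, 18.5 and 23.8 in catagen, and 78.9 and 63.5 in refractory telogen. Dorsal skin had Ccl6 at 65.4 and 66.9 FPKM in competent telogen, 41.9 and 38.7 in early anagen, 14.2, 11.6 and 16 in mid-anagen, 14.5, 13.8 and 13.3 in late anagen, 34.4 and 42.5 in catagen, and 16.5 and 15.7 in refractory telogen. Chin refractory telogen, at 95.5 to 132 FPKM, lay above every other library. Ventral telogen, at 56.2 to 78.9 FPKM, did not overlap ventral anagen, at 10.7 to 36.9 FPKM. The anagen minus telogen difference was -1.71 in ventral skin (SE 0.13, adjusted p = 2.28e-11), where it was -1.78 without competent telogen, -0.84 in the chin (SE 0.13, adjusted p = 9.61e-06) and -0.70 in dorsal skin (SE 0.13, adjusted p = 0.000102). The chin value was -2.14, and the dorsal call was lost, with a value of 0.29 (adjusted p = 0.223), without competent telogen.

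Ccl7, a ligand of Ccr2 and other CC receptors encoded next to Ccl2, had high values in chin refractory telogen, ventral telogen and dorsal early anagen. In chin skin Ccl7 was at 5.77 and 8.03 FPKM in competent telogen, 6.78 and 10.0 in early anagen, 9.09 and 5.25 in mid-anagen, 10.2 and 10.8 in late anagen, 5.12, 5.62 and 4.36 in catagen, and 35.6, 28.3 and 36.4 in refractory telogen. Ventral skin had Ccl7 at 16, 30.6 and 16.2 FPKM in competent telogen, 5.99, 4.8 and 7.15 in early anagen, 5.37 and 3.78 in mid-anagen, 3.96, 3.94 and 3.66 in late anagen, 2.4 and 4.29 in catagen, and 14.9 and 16.5 in refractory telogen. Dorsal skin had Ccl7 at 11.7 and 11.6 FPKM in competent telogen, 16.7 and 15.8 in early anagen, 1.37, 2.35 and 2.78 in mid-anagen, 5.54, 7.25 and 5.93 in late anagen, 10.8 and 15.8 in catagen, and 3.87 and 4.81 in refractory telogen. In the chin, refractory telogen was at 28.3 to 36.4 FPKM and no other chin library exceeded 10.8 FPKM. Dorsal early anagen and catagen were above dorsal refractory telogen. The ventral difference of -1.71 (SE 0.16, adjusted p = 2.22e-09), -1.55 without competent telogen, and the chin difference of -0.79 (SE 0.17, adjusted p = 0.000395) passed, and the dorsal one, -0.17, did not. The chin value was -1.86 and the dorsal one 0.45 (adjusted p = 0.0735) without competent telogen.

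Ccl2, the main ligand of Ccr2 and of monocyte recruitment, was highest in chin refractory telogen too, with a mean of 28.3 FPKM against 2.14 FPKM in ventral catagen, the lowest group. Ccl9, a ligand of Ccr1, averaged 19.4 FPKM in chin refractory telogen and 1.57 FPKM in ventral late anagen. Ccl5, which draws T cells and monocytes, was low. In chin skin Ccl5 was at 0.65 and 1.21 FPKM in competent telogen, 0.2 and 0.43 in early anagen, 1.45 and 0.42 in mid-anagen, 5.45 and 4.17 in late anagen, 0.82, 1.13 and 2.02 in catagen, and 5.28, 3.6 and 6.1 in refractory telogen. Ventral skin had Ccl5 at 6.22, 3.65 and 3.2 FPKM in competent telogen, 1.91, 2.2 and 1.21 in early anagen, 0.44 and 0.61 in mid-anagen, 2.81, 0.87 and 1.26 in late anagen, 0.33 and 0.5 in catagen, and 4.74 and 4.03 in refractory telogen. Dorsal skin had Ccl5 at 3.56 and 4.42 FPKM in competent telogen, 1.59 and 0.91 in early anagen, 0.53, 0.89 and 0.61 in mid-anagen, 1.33, 0.34 and 1.31 in late anagen, 1.6 and 0.55 in catagen, and 1.72 and 1.83 in refractory telogen. Its anagen minus telogen difference was -1.27 in ventral skin (SE 0.19, adjusted p = 1.1e-05) and -0.94 in dorsal skin (SE 0.20, adjusted p = 0.000431), and the dorsal call was lost without competent telogen (-0.53, adjusted p = 0.123). Ccl12 was highest in chin late anagen (mean 5.87 FPKM), and Ccl3 and Ccl4 stayed under 2 FPKM in every skin library.

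**Figure D4:**
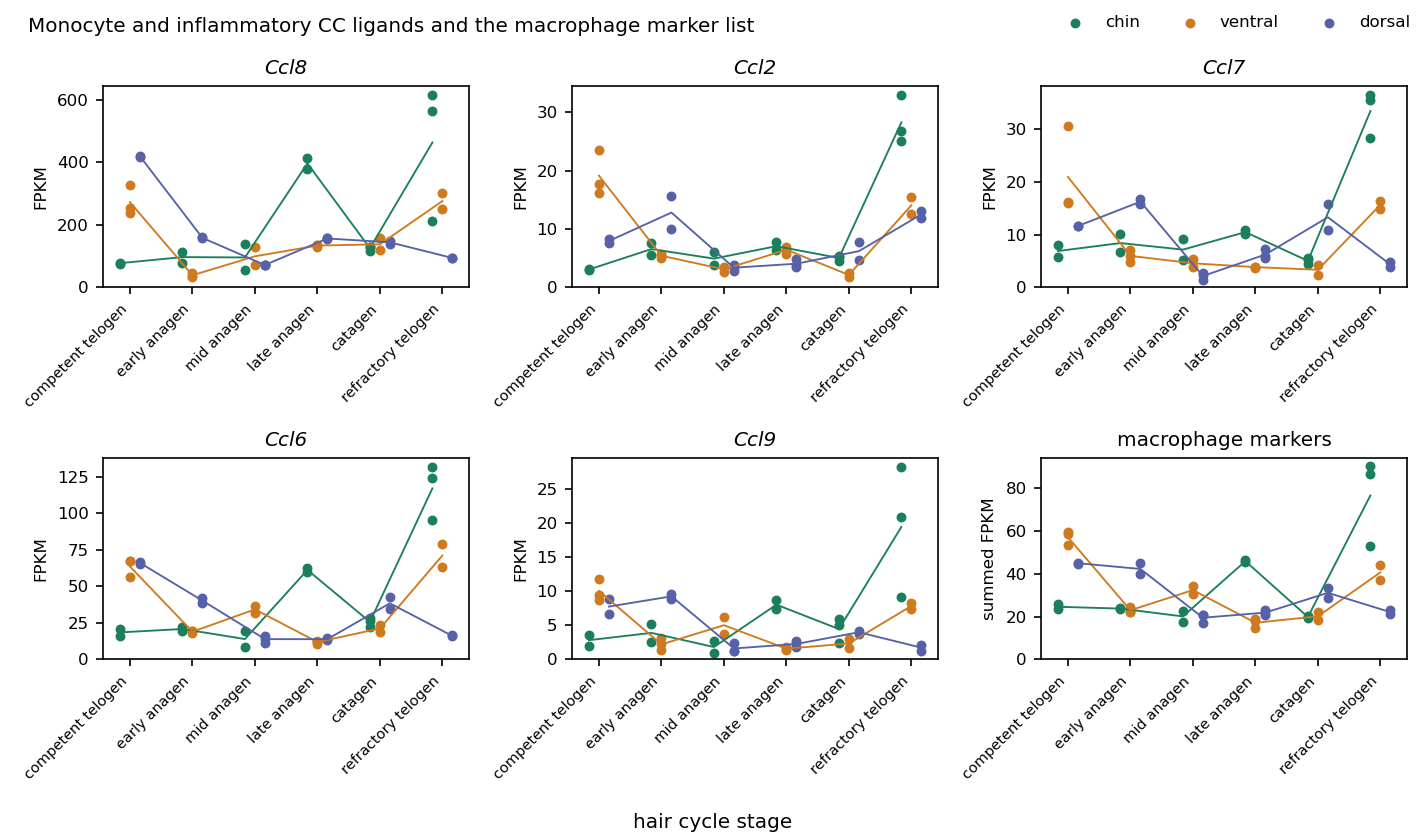
FPKM (vertical axes, from 0) of Ccl8, Ccl2, Ccl7, Ccl6 and Ccl9 and the summed FPKM of 8 macrophage markers at 6 hair cycle stages (horizontal axes) in chin, ventral and dorsal skin, with points for libraries and lines joining group means. Each panel has its highest point in chin refractory telogen, where Ccl6 is at 95.5 to 132 FPKM and the marker sum at 52.8 to 90.2 FPKM.

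The macrophage markers, 8 of 8 detected with none at 0, moved along with these ligands. Their summed FPKM was 52.8 to 90.2 in chin refractory telogen, 53.3 to 59.2 in ventral competent telogen, 45.4 to 46.2 in chin late anagen, 44.6 to 45.1 in dorsal competent telogen, 39.6 to 44.7 in dorsal early anagen and 37.2 to 44 in ventral refractory telogen, and 14.7 to 34.3 in the other groups. Of the 8 markers 7 were lower in anagen in the chin (27.5% of all genes), 7 in ventral (16.1%) and 2 in dorsal skin (9.44%), where 1 was higher (29.6%). Without competent telogen 8 were lower in the chin (29.3% of all genes) and 6 in ventral skin (10.2%), and 2 were higher in dorsal skin (26.2%). Over the 18 group means on the log2(FPKM + 1) scale, each ligand was correlated with the mean log2 level of the markers, not with their sum. The Pearson correlation was 0.965 for Ccl9, 0.954 for Ccl6, 0.890 for Ccl7, 0.784 for Ccl8 and 0.738 for Ccl2, as a description across groups in which both measures come from the same libraries. Skeletal muscle markers were also highest in chin refractory telogen (10073 to 15321 FPKM summed, 201 to 5852 FPKM in the other groups), and mast cell markers there summed to 136 to 219 FPKM. The part of any of these lists in the levels of the ligands was not tested.

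The eosinophil ligands Ccl11 and Ccl24 were lower in anagen in chin and ventral skin. Ccl11, made by dermal fibroblasts, averaged 43.3 FPKM in chin refractory telogen and 3.02 FPKM in dorsal mid-anagen, and Ccl24, made by macrophages, averaged 21.0 and 0.3 FPKM in these groups, the highest and lowest of each. Anagen minus telogen was -0.92 for Ccl11 (SE 0.13, adjusted p = 2.42e-06) and -0.88 for Ccl24 (SE 0.14, adjusted p = 7.32e-06) in the chin. In ventral skin it was -0.54 for Ccl11 (SE 0.12, adjusted p = 0.00185) and -1.37 for Ccl24 (SE 0.13, adjusted p = 3.48e-09). In dorsal skin it was -0.07 for Ccl11, which did not pass, with means of 8.13 FPKM in anagen and 8.14 FPKM in telogen, and -0.41 for Ccl24 (adjusted p = 0.0185). Without competent telogen both were higher in dorsal anagen, by 0.46 for Ccl11 (adjusted p = 0.0395) and 0.52 for Ccl24 (adjusted p = 0.0204), and the chin values were -1.92 and -2.62. Averaged over the stages, dorsal skin was lower than chin for both (0.55 for Ccl11, adjusted p = 1.51e-05; 0.48 for Ccl24, adjusted p = 0.00011).

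Neutrophil ligands were scarce in skin. Cxcl1 was above 3.27 FPKM in a single group. In chin skin Cxcl1 was at 0.74 and 0.49 FPKM in competent telogen, 0.47 and 0.73 in early anagen, 0.34 and 0.57 in mid-anagen, 0.69 and 0.85 in late anagen, 0.29, 0.29 and 0.84 in catagen, and 8.9, 3.92 and 9.69 in refractory telogen. Ventral skin had Cxcl1 at 0.91, 3.27 and 1.1 FPKM in competent telogen, 0.65, 1.19 and 1.23 in early anagen, 0.29 and 0.13 in mid-anagen, 0.27, 0 and 0.11 in late anagen, 0.14 and 0.23 in catagen, and 1.06 and 0.36 in refractory telogen. Dorsal skin had Cxcl1 at 0.62 and 0.88 FPKM in competent telogen, 1.56 and 2.03 in early anagen, 0, 0 and 0.09 in mid-anagen, 0.1, 0.16 and 0.28 in late anagen, 0.44 and 0.12 in catagen, and 0.29 and 0.31 in refractory telogen. Chin refractory telogen, at 3.92 to 9.69 FPKM, was above all other skin libraries. Domains differed at refractory telogen (F-test, adjusted p = 4.36e-09), and anagen was lower than telogen in the chin (-1.17, SE 0.18, adjusted p = 8.33e-06) and in ventral skin (-0.57, SE 0.17, adjusted p = 0.0165). Without competent telogen the chin difference was -2.33 (adjusted p = 2.08e-10), and the ventral call was lost (-0.26, adjusted p = 0.403). Cxcl2 was likewise highest in chin refractory telogen (mean 1.85 FPKM). Cxcl15, known from lung epithelium, reached 0.5 FPKM in 2 libraries, both of ventral refractory telogen. Cxcl3 and Cxcl5 did not exceed 0.18 FPKM in skin. The interferon-inducible Cxcl10 lay between 1.14 and 11.8 FPKM, Cxcl9 between 0.16 and 2.86 FPKM, and both were lower in anagen in the chin (-0.62 for Cxcl10, adjusted p = 0.000792; -0.61 for Cxcl9, adjusted p = 0.000319) and in ventral skin (-0.72, adjusted p = 0.000169; -0.66, adjusted p = 0.00012). The chin value of Cxcl9 was -1.02 without competent telogen.

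Averaged over the stages, dorsal skin held the least of several members. Against dorsal skin, 13 of 33 members were higher in ventral skin (37.5% of all genes called, 19.9% higher) and 12 in chin skin (26.8% called, 17.3% higher), with 0 lower in either comparison (background 17.6% and 9.52% lower). At an unadjusted p under 0.05 in limma, 0 members were lower in ventral and 1 in chin skin, and scaling by the median of ratios left 10 higher and 1 lower in the chin. Both comparisons share the dorsal libraries. Among the members called, the largest differences against dorsal skin were 0.90 for Ccl21a and 0.66 for Cxcl14 in ventral skin, the latter 0.35 without catagen, and 0.55 for Ccl11 and 0.52 for Xcl1 in the chin. Between chin and ventral skin, 5 were higher in the chin (Cxcl2, Ccl11, Cxcl13, Ccl7 and Cxcl1) and 6 in ventral skin, with Ccl21a the largest of these (23.7% of all genes called, 14.5% higher and 9.13% lower). Without competent telogen 17 members differed between chin and ventral skin, 12 higher in the chin and 5 lower (20.8% called, 14.7% higher and 6.1% lower). Against dorsal skin 16 were then higher in the chin (29.3% called, 15.0% higher), and 13 were higher and 2 lower in ventral skin (37.0% called, 13.5% higher and 23.5% lower).

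The ear table sets ear skin in telogen beside dorsal skin, and beside the cartilage and muscle that lie under it. The study's text calls this dorsal skin refractory telogen and its figure legend first telogen. The sample labels say competent telogen and were followed here. In the cartilage/muscle complex Cxcl1, Cxcl2, Cxcl9 and Cxcl10 were higher than in any skin library and the epithelial ligand Ccl27a was lower. Cxcl5, another neutrophil ligand, was instead lower than in ear skin (0.02 against 0.63 FPKM, difference -0.68, SE 0.09, adjusted p = 0.000767). Cxcl1 averaged 245 FPKM there, 192-fold its level in ear skin, and Cxcl10 averaged 104 FPKM, 34.9-fold. Ccl27a went the other way, with a 12.7-fold higher mean in ear skin and a 48.5-fold higher mean in dorsal skin. Of 32 members tested, 8 were higher and 16 lower in the complex than in ear skin (66.5% of all genes called, 28.0% higher and 38.5% lower), with a median difference of -0.70 over members and -0.11 over all genes. Against dorsal skin 13 were higher and 15 lower (71.1% called, 42.8% higher and 28.3% lower), with medians of -0.46 and 0.24. Ear skin exceeded dorsal skin for 18 members and was below it for 7 (59.3% called, 44.7% higher and 14.6% lower), with medians of 0.61 and 0.33. With median-of-ratios scaling these last counts were 12 and 8, and the median of all genes moved by -0.31.

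The promoters of Cxcl1, Cxcl2 and Cxcl10, which were high in the complex, and of their neighbour Cxcl3, which was not, are shown because they hold a kappaB match close to the start. The promoters of Cxcl9, Cx3cl1 and Cxcl13, also higher in the complex than in ear skin, held none in the 250 bases before the start. None was listed for Ccl2 and Ccl17, which were higher there too. The promoters of Ccl20 and Ccl9, not shown, held a match at bases -80 to -71 and -35 to -26. Both genes were lower in the complex than in ear skin, with differences of -2.82 and -1.74. The stretches lie upstream of the annotated RefSeq start (GRCm38.p6), 5′ to 3′ on the strand of the gene. For Cxcl3 and Cxcl10 they end at the base before the start used for the match positions. For Cxcl1 and Cxcl2 they end short of that start. Capitals mark matches to the kappaB consensus, the site of NF-kappaB family factors, found by script on either strand; in Cxcl10 the first run of capitals marks GAAA, any 2 bases and GAAA again, a core of interferon-stimulated response elements. Cxcl1 lies at chr5:90891115-90891240 (plus strand), Cxcl2 at chr5:90903769-90903870 (plus), Cxcl3 at chr5:90785971-90786100 (plus) and Cxcl10 at chr5:92348890-92349119 (minus).
Cxcl1: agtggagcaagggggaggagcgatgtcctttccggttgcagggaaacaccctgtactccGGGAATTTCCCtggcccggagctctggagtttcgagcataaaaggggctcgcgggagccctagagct
Cxcl2: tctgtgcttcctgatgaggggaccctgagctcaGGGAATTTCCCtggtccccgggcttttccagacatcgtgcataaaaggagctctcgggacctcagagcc
Cxcl3: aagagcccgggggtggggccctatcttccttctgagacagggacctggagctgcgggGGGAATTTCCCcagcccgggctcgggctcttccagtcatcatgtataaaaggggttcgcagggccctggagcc
Cxcl10: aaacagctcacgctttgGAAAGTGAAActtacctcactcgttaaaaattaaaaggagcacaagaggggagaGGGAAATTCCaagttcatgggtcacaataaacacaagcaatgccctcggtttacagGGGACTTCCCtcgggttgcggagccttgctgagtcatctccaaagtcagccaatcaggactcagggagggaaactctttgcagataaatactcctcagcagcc
In the 250 bases before the start, 6 of 33 promoters of members held the kappaB consensus and 3.9% of all 32851 promoters did. The GAAA pair was in 3 of 33 and 2.98% of all, and TATAAA in 10 of 33 and 12.4%. The table held promoters of 27 member symbols. A match only describes the letters: Cxcl3 has the same 11 bases as Cxcl1 and Cxcl2 but was not above 0.22 FPKM in any library. In the genome, 8 CXC genes, Cxcl1, Cxcl2, Cxcl9 and Cxcl10 among them, lie together on chromosome 5 from 90759360 to 92365485.

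Cxcl1 was at 247, 226 and 262 FPKM in the cartilage/muscle libraries, 1.44 and 1.12 FPKM in ear skin and 0.62 and 0.88 FPKM in dorsal skin. Every cartilage/muscle library exceeded every skin library of the series by more than an order of magnitude. The difference was 6.76 against ear skin (SE 0.11, adjusted p = 7.72e-08) and 7.14 against dorsal skin (SE 0.11, adjusted p = 4.37e-08), and between the skins 0.38 (SE 0.12, adjusted p = 0.0329). Cxcl2, its neighbour and the other main ligand of Cxcr2, read 12.8, 8.65 and 10.9 FPKM in the cartilage/muscle libraries, 0.59 and 0.35 FPKM in ear skin and 0.07 and 0 FPKM in dorsal skin. The groups did not overlap, with differences of 2.99 against ear skin (SE 0.17, adjusted p = 1.46e-05) and 3.49 against dorsal skin (SE 0.17, adjusted p = 6.64e-06).

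Cxcl10, the interferon-inducible ligand of Cxcr3, was at 94.4, 117 and 100.4 FPKM in the cartilage/muscle libraries, 3.4 and 2.56 FPKM in ear skin and 5 and 4 FPKM in dorsal skin. It differed by 4.72 from ear skin (SE 0.14, adjusted p = 9.96e-07) and by 4.25 from dorsal skin (SE 0.14, adjusted p = 1.47e-06). Cxcl9 read 14.6, 11.4 and 15 FPKM in the cartilage/muscle libraries, 0.56 and 0.72 FPKM in ear skin and 0.87 and 1.45 FPKM in dorsal skin. Its differences were 3.16 (SE 0.17, adjusted p = 1.11e-05) and 2.77 (SE 0.17, adjusted p = 1.76e-05), and for both genes the complex stood clear of both skins. Cx3cl1 was 2.08 higher than in ear skin (SE 0.07, adjusted p = 1.61e-06), with means of 20.6 FPKM in the complex, 4.08 FPKM in ear skin and 2.19 FPKM in dorsal skin. Ccl2 was 1.32 higher (SE 0.10, adjusted p = 5.88e-05), with means of 42.9, 16.6 and 7.96 FPKM in the same order.

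**Figure D5:**
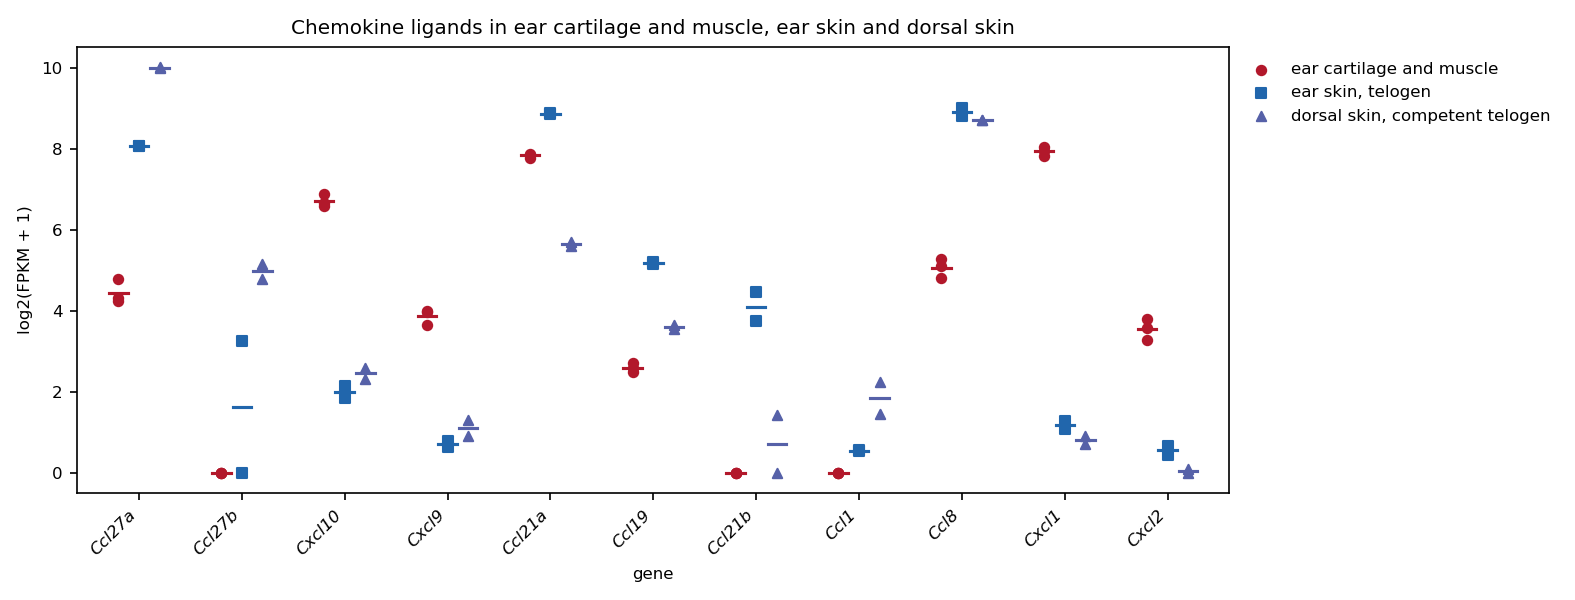
Level of 11 chemokine ligands as log2(FPKM + 1) (vertical axis) in 3 libraries of ear cartilage and muscle, 2 of telogen ear skin and 2 of dorsal competent telogen skin (horizontal axis, genes), with points for libraries and short lines for group means. Cxcl1, Cxcl2, Cxcl9 and Cxcl10 are highest in cartilage and muscle and Ccl27a is lowest there, while Ccl21a, Ccl21b and Ccl19 are highest in ear skin.

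Lists of inflammatory and stress-responsive genes had higher sums in the complex than in ear skin, although the interferon list was divided gene by gene. Immediate early genes, 14 of 14 detected, summed to 11655 to 13182 FPKM in the complex, 503 to 559 FPKM in ear skin and 558 to 562 FPKM in dorsal skin, with 12 of 14 higher than in ear skin. Of all genes tested, 28.0% were higher and 38.5% lower in the complex than in ear skin. The list of 15 NF-kappaB and early inflammatory genes summed to 578 to 659, 189.7 to 203 and 109 to 111 FPKM in the same order, with 7 of 13 tested higher than in ear skin and 1 lower. Interferon response genes, 15 of 15 detected, summed to 258 to 292 FPKM in the complex and 124 to 129 FPKM in ear skin, where 6 were higher and 7 lower in the complex. What part these genes have in the levels of the ligands was not tested. Neutrophil markers were near 0 in the complex, 3.12 to 4.07 FPKM summed over 7 genes, with Mpo, Ngp and Camp at 0 in all 3 libraries, against 84.2 to 86.6 FPKM in ear skin, most of it S100a8 and S100a9, which keratinocytes also make. Macrophage markers summed to 36.5 to 44.2 FPKM in the complex and 142 to 156 FPKM in ear skin, T cell markers to 6.96 to 10.3 and 129 to 134 FPKM, and keratinocyte markers to 7.27 to 8.14 and 10640 to 11783 FPKM. Skeletal muscle markers (16846 to 19580 FPKM) and cartilage markers (1527 to 1877 FPKM, 7 detected of 8 listed) were high in the complex, as its label says, and the cartilage markers were at 30.5 to 31.7 FPKM in ear skin.

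Of 7 epithelial and T cell or dendritic cell homing ligands tested, 4 were lower and 1 higher in the complex than in ear skin (38.5% of all genes lower and 28.0% higher). Against dorsal skin 5 were lower and 2 higher (28.3% of all genes lower and 42.8% higher). The higher ones were Ccl17, by 0.98 against ear skin (SE 0.31, adjusted p = 0.0315) and 2.03 against dorsal skin (SE 0.31, adjusted p = 0.00135), and Ccl25, by 0.63 against dorsal skin (SE 0.15, adjusted p = 0.00956). Ccl27a was at 26.6, 17.8 and 18.8 FPKM in the cartilage/muscle libraries, 268 and 266 FPKM in ear skin and 1029 and 1015 FPKM in dorsal skin. The 3 tissues did not overlap, and the complex differed by -3.62 from ear skin (SE 0.16, adjusted p = 5.31e-06) and by -5.55 from dorsal skin (SE 0.16, adjusted p = 7.92e-07), while ear skin was -1.93 from dorsal skin (SE 0.18, adjusted p = 0.000225). Keratinocyte markers were higher in ear skin (10640 to 11783 FPKM) than in dorsal skin (3537 to 3627 FPKM), opposite to Ccl27a. Cxcl14 had means of 19.8 FPKM in the complex, 55.9 FPKM in ear skin and 126 FPKM in dorsal skin, in the same order as Ccl27a. Ccl27b read 0 FPKM in all 3 cartilage/muscle libraries, 0 and 8.59 FPKM in ear skin and 26.7 and 34.6 FPKM in dorsal skin. Its difference of -4.97 between the complex and dorsal skin passed (SE 0.86, adjusted p = 0.00236), and that of -3.34 between ear and dorsal skin (SE 0.94, adjusted p = 0.0229) was lost when either dorsal library was left out, with values from -4.97 to -1.71. Where all libraries of a group are at 0, as for Ccl27b in the complex, the fitted difference depends on the pseudocount of 1 and is no bound. Ccl20 and Xcl1 were listed at 0 in all 3 cartilage/muscle libraries.

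Ear skin held more of the Ccr7 ligands Ccl21a and Ccl19 than dorsal competent telogen skin. Ccl21a was at 230.3, 232 and 218 FPKM in the cartilage/muscle libraries, 462 and 468 FPKM in ear skin and 51.1 and 47.6 FPKM in dorsal skin. Ear skin exceeded dorsal skin by 3.21 (SE 0.06, adjusted p = 3.07e-07), the complex lay between them, and none of the 3 groups overlapped. Ccl19 read 4.57, 5.48 and 4.97 FPKM in the cartilage/muscle libraries, 34.7 and 35.7 FPKM in ear skin and 11.6 and 10.7 FPKM in dorsal skin. It was 1.58 higher in ear than in dorsal skin (SE 0.09, adjusted p = 3.6e-05), and the complex was the lowest group. Chin refractory telogen averaged more Ccl19 than ear skin, 41.9 FPKM, whereas no chin, ventral or dorsal library exceeded 372 FPKM for Ccl21a. Ccl21b, whose sequence is shared in full with its copies, was at 0 FPKM in all 3 cartilage/muscle libraries, 20.9 and 12.3 FPKM in ear skin and 0 and 1.69 FPKM in dorsal skin. Its difference was 3.38 between ear and dorsal skin (SE 0.47, adjusted p = 0.00123) and -4.09 between the complex, where it was at 0 throughout, and ear skin (SE 0.42, adjusted p = 0.000247). Lymphatic markers, the 4 of the list of 5 other than Ccl21a, summed to 43.3 to 44.5 FPKM in the complex, 43.8 to 46.7 FPKM in ear skin and 36.3 to 37.9 FPKM in dorsal skin.

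Monocyte ligands divided between the tissues. Ccl8 was at 38, 33.4 and 26.9 FPKM in the cartilage/muscle libraries, 516 and 449 FPKM in ear skin and 420.4 and 419 FPKM in dorsal skin. Both skins stood far above the complex, by 3.85 and 3.65 on the log2 scale (differences of -3.85, SE 0.14, adjusted p = 2.43e-06, and -3.65, SE 0.14, adjusted p = 2.87e-06), and did not differ beyond the threshold from each other (0.20, SE 0.16, adjusted p = 0.326). Both differences from dorsal skin depended on its stage. With dorsal refractory telogen in place of competent telogen, the complex was at -1.51, and ear skin was higher than dorsal skin by 2.34 (SE 0.16, adjusted p = 7.37e-05). Ccl6 had means of 12.7 FPKM in the complex, 90.6 FPKM in ear skin and 66.1 FPKM in dorsal skin. Here too the dorsal level depended on the stage: dorsal refractory telogen, given above, was far below competent telogen and little above the complex. Ccl2 went the opposite way to Ccl8 and Ccl6, as given above, although Ccl2 and Ccl8 lie in 1 cluster of 6 members on chromosome 11 from 82035571 to 82305690. Ccl7, between them in that cluster, was 1.11 higher in the complex than in dorsal skin (SE 0.16, adjusted p = 0.000864) and did not differ past the threshold from ear skin (-0.41, adjusted p = 0.057). Ccl1 read 0 FPKM in all 3 cartilage/muscle libraries, 0.44 and 0.47 FPKM in ear skin and 3.75 and 1.72 FPKM in dorsal skin. It was lower in ear than in dorsal skin (-1.30, SE 0.25, adjusted p = 0.0047) with no overlap. Ccl12, Ccl20, Ccl24 and Cxcl5 were among the members highest in ear skin, with means of 11.8, 6.08, 15.5 and 0.63 FPKM.

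Of 23 receptors listed, 19 were tested in skin and 18 in the ear table. Among the higher group means in skin were 36.3 FPKM for Ackr1, the Duffy receptor of venules, in ventral early anagen, 16.1 FPKM for Ackr4, a decoy for Ccr7 ligands, in the same group, and 13.2 FPKM for Ackr3, a decoy for Cxcl12, in chin refractory telogen. Ccr10, the receptor of Ccl27, did not exceed a group mean of 0.27 FPKM, and Ccr3, the receptor of Ccl11 and Ccl24, 0.317 FPKM. In anagen 14 of 19 receptors were lower and 1 higher in the chin, 8 were lower in ventral skin, and 6 were lower and 1 higher in dorsal skin (of all genes 27.5% were lower and 8.99% higher in the chin, 16.1% lower in ventral skin, and 9.44% lower and 29.6% higher in dorsal skin). Without competent telogen 14 were lower and 1 higher in the chin, 4 lower in ventral skin, and 4 lower and 1 higher in dorsal skin (of all genes 29.3% lower and 15.3% higher, 10.2% lower, and 11.8% lower and 26.2% higher). Ccr2, the receptor of Ccl2 and Ccl7, had differences of -0.64 in the chin (adjusted p = 3.64e-05), -0.99 in ventral skin (adjusted p = 3.33e-08) and -0.40 in dorsal skin (adjusted p = 0.00523). Without competent telogen these were -1.64, -0.74 and, no longer past the threshold, 0.15 (adjusted p = 0.492). Cxcr2, the receptor of Cxcl1, was the chin receptor that was higher in anagen (0.77, adjusted p = 0.000148). Its level was 4.34 FPKM (mean) in ear cartilage and muscle and 4.95 FPKM in ear skin.

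Against ear skin, 11 of 18 receptors were lower in the cartilage/muscle complex and 2 were higher (38.5% of all genes lower and 28.0% higher). Ackr3 was at 43.1 to 50.2 FPKM in the complex, 12.6 to 15.9 FPKM in ear skin and 5.33 to 6.22 FPKM in dorsal skin, a difference of 2.82 between complex and dorsal skin (SE 0.12, adjusted p = 4.16e-06). Ccr2 was 2.75 lower than in ear skin (difference -2.75, SE 0.14, adjusted p = 8.51e-06) and Cxcr6, the receptor of Cxcl16, 2.40 lower (difference -2.40, SE 0.16, adjusted p = 2.79e-05). Cxcr3, the receptor of Cxcl9 and Cxcl10, was at 0.11 to 0.19 FPKM in the complex and 1.52 to 1.58 FPKM in ear skin. Ear skin exceeded dorsal skin for 12 of 18 receptors and was lower for 3 (44.7% of all genes higher and 14.6% lower).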

How the data were processed

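Whole skin RNA was profiled by SMART-seq2 libraries sequenced paired-end. The authors quantified reads with RSEM 1.2.25 against mm10 with GENCODE vM8, corrected for batches that the sources used here do not name, and deposited FPKM values to 2 decimals, with 1 column per library. Counts were not used, and a correction of that kind can also shrink the spread between replicates. All 50 columns were tied to a sample, and the 2 columns of ear skin carry no replicate number that matches a title.

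FPKM were tested as log2(FPKM + 1) with limma 3.58.1 (R 4.3.3), with a variance trend, on genes of at least 0.5 FPKM in at least 2 libraries. All 18 groups shared 1 fit in the skin table and the 3 tissues 1 fit in the ear table, with Benjamini-Hochberg adjustment over all genes tested and a threshold of 0.05. The code was tested on simulated data. Depth was estimated from the smallest steps of low values. Alternatives were a pseudocount of 0.1, no filter, rescaling to a fixed sum per library, median-of-ratios scaling, a fit lacking the variance trend, replicate number as a block and leaving out each library. Those without competent telogen, without chin late anagen and dorsal competent telogen, without ventral competent telogen and early anagen, with dorsal refractory telogen in the ear table, and without catagen for the domain means of Cxcl14, were chosen after the data were seen. Shared sequence was counted as stretches of 50 bases of GENCODE vM21 transcripts, positions are GRCm38, and promoters are RefSeq GRCm38.p6.

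Members and gene lists were chosen with earlier results of these data known. Named with values in every library were the 8 members of highest mean, the 3 largest differences in each direction per ear pair and the 3 largest anagen minus telogen differences in each direction per domain among those called. For Ccl27a, Ccl8 and Cxcl14 the 3 most alike genes of at least 1 FPKM were named. Other members are given by group means, ranges and counts. The values of 1 receptor are not reported here.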

Additional observations from a re-analysis of the deposited data

Results flagged for a closer look

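Results listed here had an anagen minus telogen difference that itself differed between domains, by a limma contrast with Benjamini-Hochberg adjustment over all genes. This held for 10 of 33 members between chin and ventral skin (18.7% of all genes), 15 between chin and dorsal skin (46.1%) and 18 between ventral and dorsal skin (39.4%). A negative value means that anagen was lower against telogen in the domain named first.

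Between chin and ventral skin the monocyte ligands stood out, all with the lower anagen minus telogen value in ventral skin. The difference was 1.49 for Ccl8 (adjusted p = 0.000366), 0.92 for Ccl7 (adjusted p = 0.00473), 0.87 for Ccl6 (adjusted p = 0.000978) and 0.80 for Ccl5 (adjusted p = 0.0462), and none of these 4 kept its call without the competent telogen libraries (0.29 for Ccl8 and 0.01 for Ccl5, with Ccl6 and Ccl7 below 0).

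Between chin and dorsal skin the value was lower in the chin for Ccl21a (-1.59, adjusted p = 5.29e-06 by limma), Cxcl1 (-1.16, adjusted p = 0.000513), Ccl19 (-1.14, adjusted p = 0.00146), Ccl20 (-1.14, adjusted p = 0.000135), Cx3cl1 (-0.80, adjusted p = 0.000644) and Ccl7 (-0.62, adjusted p = 0.0334). It went the other way for Cxcl12 (0.85, adjusted p = 6.49e-08) and Ccl25 (0.39, adjusted p = 0.0251). Without competent telogen the values were -2.29 for Ccl21a, -2.54 for Cxcl1, -2.23 for Ccl19, -0.81 for Cx3cl1 and -2.31 for Ccl7, all called. Ccl20 (-0.04) and Ccl25 (0.13) were not, and Cxcl12 turned to -0.32 (adjusted p = 0.0412), a call in the opposite direction.

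Between ventral and dorsal skin it was lower in ventral skin for Ccl7 (-1.54, adjusted p = 4.54e-06 by limma), Ccl19 (-1.34, adjusted p = 0.000289), Ccl21a (-1.16, adjusted p = 0.00028), Ccl20 (-1.14, adjusted p = 0.000128), Ccl8 (-1.06, adjusted p = 0.00408), Ccl6 (-1.01, adjusted p = 6.47e-05) and Cx3cl1 (-0.68, adjusted p = 0.00319), and lower in dorsal skin for Cxcl12 (0.67, adjusted p = 2.77e-06) and Ccl27b (4.85, adjusted p = 0.0135). Ccl7 (-2.0), Ccl8 (-2.14), Ccl6 (-2.07) and Ccl19 (-1.12) were called also without competent telogen. Ccl21a (-0.17), Ccl20 (-0.24), Cx3cl1 (-0.39), Cxcl12 (0.37) and Ccl27b (3.46) were not.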

How the results depend on the processing

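Over the alternatives to 98 results, 3910 values kept their direction and side of the threshold (counts within 1.5 times), 85 lost the call, 45 moved and 5 reversed. Most of these values came from leaving out 1 library, often outside the groups compared, and such a fit can hardly change the result. Each skin result had at most 9 other alternatives, so the first count does not measure robustness. Without competent telogen the ventral anagen minus telogen count was 13 and the chin minus ventral count of domain means was 17, and without ventral competent telogen and early anagen the ventral minus dorsal count of differing anagen minus telogen was 9. Ccl20 in dorsal skin was -0.067 (anagen minus telogen) without competent telogen and without chin late anagen and dorsal competent telogen, and without competent telogen the chin minus ventral difference was -0.353 for Ccl6 and -0.309 for Ccl7 and the chin minus dorsal difference -0.323 for Cxcl12. The cause was not tested. Leaving out 1 library gave 19 to 24 members in the chin, 19 to 24 in ventral skin and 12 to 16 in dorsal skin for anagen minus telogen, and 17 to 29 for ear against dorsal skin. The replicate number as a block gave 22, 21 and 15 members for anagen minus telogen in chin, ventral and dorsal skin and 27 for cartilage/muscle against dorsal skin. Same-numbered libraries correlated at a median of 0.003 (range -0.174 to 0.162, 9 of 327 pairs over 0.1), and 21 of 43 libraries correlated best with their own number, so that the samples share only a number. No paired analysis was possible for ear skin because its columns carry no matching number. Median-of-ratios scaling changed higher and lower members from 4 and 14 to 7 and 9 for the ventral minus dorsal difference of anagen minus telogen and from 2 and 13 to 6 and 7 for chin minus dorsal, with shifts of the median gene of 0.20 and 0.23. Rescaling each library to a fixed sum gave 5 and 6 in place of 6 and 4 for chin minus ventral. It moved the median gene by -0.20 for cartilage/muscle against ear skin and by 0.18 for ear against dorsal skin, and median-of-ratios scaling moved it by -0.27 for cartilage/muscle against dorsal skin. Depth limits members under 1 FPKM, whose values rest on a few fragments.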

Other observations

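Each of 3 members was summed with the copies that share its sequence. Because FPKM is scaled to transcript length, such a sum can still depend on how reads were divided. Ccl27a with its copies ran from 1095 to 4891 FPKM over the skin libraries, and the share assigned to Ccl27a was 51.3% to 69.4% (median 64.9%). Ccl21a held 58.8% to 84.7% of its summed family (median 70.6%). Ccl19 held only 21.7% to 47.4% (median 29.0%), so that most of the summed FPKM of that family was listed under other names.

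The genes most like Ccl27a over the 18 group means of the skin table, by Pearson correlation of log2(FPKM + 1), were its copy Gm13306 (0.929), Fcgbp (0.901), which encodes a mucin-like protein, and Hdac5 (0.890), a histone deacetylase. For Ccl8 they were Cd209g (0.915), a lectin of the DC-SIGN family, Folr2 (0.910), a marker of tissue-resident macrophages, and Wfdc17 (0.908). For Cxcl14 they were 1700047I17Rik2 (0.969), Mir6236 (0.961) and Jup (0.958), the gene of plakoglobin, and without dorsal catagen these values were 0.725, 0.604 and 0.558 over 17 groups. All of these describe groups in which both genes come from the same libraries.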
